A study of Mus musculus with 2 samples.

Results

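The immediate early genes described here are the 10 genes Fos, Fosb, Jun, Junb, Jund, Egr1, Ier2, Atf3, Klf4 and Klf6. They were chosen by name from a merged table of 15364 genes, and all 10 had a row in it. Neural stem cells had been cultured from hippocampi of C57BL6/J mice, males at 6 weeks of age, sorted singly by flow cytometry and profiled by SORT-seq, which tags each transcript near its 3′ end with a molecular identifier. Cells of 4 culture states were measured, with 1 culture each. Quiescent cells had been kept with 50 ng/mL BMP4 and FGF2 and no EGF for at least 3 days. Cells in 24 h exit and 48 h exit came from such quiescent cells, returned to activation medium with 0.5 µg/mL noggin, a secreted inhibitor of BMP4, for 24 h or 48 h. Activated cells grew in 20 ng/mL FGF2 and EGF, and noggin is not named for them. Each culture was divided at sorting into 4 gates of autofluorescence intensity, here Low, Low-mid, Mid-high and High.

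Kept cells numbered 174 quiescent, 151 in 24 h exit, 151 in 48 h exit and 164 activated, against 47 per condition in the series' design text. Summed counts per culture lay between 3046628 and 6563487, with quiescent and 24 h cells sorted into 1 plate and the 48 h and activated cells into the other. On the 2 plates 269 well barcodes held a kept cell on both, since each plate uses the same set. The 10 markers of neural stem cells and astroglia summed to between 4499 and 7284 CPM (counts scaled to the total of a culture). The largest was Fabp7, and in activated cells Vim. Single markers went both ways. Gfap and Aqp4 were at 72.5 and 244 CPM in quiescent cells and at 1.37 and 1.68 in activated cells. Nes was at 56.9 CPM in quiescent cells and 657 in activated cells. Microglial markers summed to at most 1.97 CPM, with no row for C1qa, C1qb and Aif1, and endothelial markers to at most 2.13 CPM, with no row for Cldn5 and Cdh5. Neuronal markers summed to between 5.33 and 44.9 CPM, mostly Tubb3, and those of oligodendrocyte precursors to between 1880 and 3670 CPM, mostly Olig1 and Olig2, with no row for Sox10.

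Immediate early genes are transcribed within minutes of a stimulus without new protein synthesis. Growth factors reach them through MAP kinases, which act on the serum response factor with its ETS partners and on CREB, and their messages are short-lived, many of them through AU-rich elements. FOS and JUN proteins pair to form AP-1, EGR1 is a zinc finger factor, and KLF4 and KLF6 are Krüppel-like factors. The genes are also known to be induced while tissue is dissociated and sorted. The part of handling in the levels given here was not tested.

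The letters before the starts of Fos, Junb and Jun are shown because Fos and Junb lay lower in activated than in quiescent cells while Jun, their partner in AP-1, did not. RefSeq promoter entries for build GRCm38.p6 matched 8 of the 10 genes, all but Egr1 and Ier2. Each sequence holds the 250 bases before the annotated start, 5′ to 3′ on the strand of the gene, and capitals mark matches to a motif searched. The Fos window is chr12:85473640-85473889 on the plus strand, the Junb window chr8:84978749-84978998 on the minus strand and the Jun window chr4:95052223-95052472 on the minus strand. For Junb the GENCODE vM21 annotation puts the start of the gene at 84978718, which does not adjoin this window. Distances given for Junb are from the RefSeq start.

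Fos: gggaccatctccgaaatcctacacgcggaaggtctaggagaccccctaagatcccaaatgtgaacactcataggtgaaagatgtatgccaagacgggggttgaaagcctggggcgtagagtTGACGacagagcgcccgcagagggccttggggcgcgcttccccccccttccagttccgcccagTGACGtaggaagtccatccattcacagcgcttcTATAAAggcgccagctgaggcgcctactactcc
Junb: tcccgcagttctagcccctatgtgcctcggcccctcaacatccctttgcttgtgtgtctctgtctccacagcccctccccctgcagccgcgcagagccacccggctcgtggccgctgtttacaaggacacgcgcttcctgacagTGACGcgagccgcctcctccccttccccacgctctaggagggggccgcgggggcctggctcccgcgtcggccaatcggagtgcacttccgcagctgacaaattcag
Jun: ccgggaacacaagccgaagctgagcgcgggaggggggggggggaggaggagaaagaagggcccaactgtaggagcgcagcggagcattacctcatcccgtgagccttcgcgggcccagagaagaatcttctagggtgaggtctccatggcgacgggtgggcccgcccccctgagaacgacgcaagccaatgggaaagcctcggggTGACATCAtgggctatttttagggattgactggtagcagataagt

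The motifs searched on both strands were TGACG, the core of a CREB site, TGANTCA, the AP-1 site, TGANNTCA, its 8-base form, and the CArG box of the serum response factor. TATAAA, the TATA box, was searched on the strand of the gene. A full CREB palindrome would match both TGACG and TGANNTCA. Among all 32851 windows of that length 17.8% held TGACG, 6.75% TGANTCA, 11.9% TGANNTCA, 1.47% a CArG box and 7.59% TATAAA. The Fos window held TGACG at 129 to 125 and at 66 to 62 bases before the start and TATAAA at 33 to 28. The Junb window held TGACG at 106 to 102 bases, and the Jun window held TGACATCA, a TGANNTCA match, at 45 to 38. TGACG was also in the windows of Fosb, Atf3 and Klf4, and TGANNTCA in those of Jund and Klf6. No window of a matched member held TGANTCA or a CArG box. Bases further than 250 before the start were not searched. A match is a run of letters and not a measured binding site.

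Fos was the member that set activated cells apart. Its level was 33.0 CPM in quiescent cells, 28.2 in 24 h exit, 30.3 in 48 h exit and 5.64 in activated cells, from 159, 86, 125 and 37 counts. The first 3 cultures lay within each other's 95% counting intervals (28.1 to 38.6, 22.6 to 34.9 and 25.2 to 36.1), and the activated culture lay far under all of them at 3.97 to 7.77. Fosb, its paralogue, was near absent, with 3 counts in quiescent cells, none in either exit culture and 2 in activated cells. A count of 0 allows up to 0.985 CPM at 24 h and 0.727 CPM at 48 h. Intervals throughout cover counting error only, since each state had 1 culture and cells of a culture are not replicates of a condition.

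The 3 Jun genes, whose proteins pair with FOS, did not move as one. Jun was at 42.6 CPM in quiescent cells, 74.9 in 24 h exit, 97.0 in 48 h exit and 63.0 in activated cells, with every neighbouring interval apart except those of the 24 h and activated cultures, 65.4 to 85.2 and 57.0 to 69.3. Junb was at 26.6, 19.7, 16.2 and 11.0 CPM in the same order, highest in the quiescent and lowest in the activated culture, with intervals of 22.2 to 31.6 and 8.58 to 13.8 at those ends. Jund, which is known to be the least inducible of them, was at 93.1, 88.3, 65.7 and 78.2 CPM. Its quiescent and 24 h intervals overlapped (84.6 to 102 and 78.1 to 99.5), and that of 48 h (58.1 to 74.0) lay under both.

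Egr1 had the widest range among the abundant members. It was at 27.2 CPM in quiescent cells, 57.1 in 24 h exit, 91.2 in 48 h exit and 98.7 in activated cells, with 131, 174, 376 and 648 counts. The 48 h and activated intervals overlapped at 82.2 to 101 and 91.3 to 107, and the other neighbours in that order did not. Ier2, a small nuclear protein gene of the early response, was at 10.4, 12.8, 19.4 and 11.3 CPM in the order quiescent, 24 h, 48 h and activated, highest at 48 h with an interval of 15.4 to 24.1. Atf3, a stress-induced bZIP factor, had between 3 and 4 counts in each culture and between 0.457 and 0.985 CPM, so that no difference was detectable at this depth.

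The 2 Krüppel-like genes differed from each other. Klf4 was at 10.2 CPM in quiescent cells from 49 counts, 0.656 in 24 h exit from 2 counts, 3.88 in 48 h exit from 16 counts and 7.31 in activated cells from 48 counts, with the quiescent and activated intervals overlapping at 7.53 to 13.5 and 5.39 to 9.70. Klf6 was at 45.5, 71.3, 59.4 and 75.6 CPM, lowest in the quiescent culture. The 24 h and activated intervals of Klf6 overlapped at 62.1 to 81.4 and 69.1 to 82.5.

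Summed over the 10 genes, the level differed less than that of its largest members. The sum was 290 CPM in quiescent cells, 354 in 24 h exit, 384 in 48 h exit and 351 in activated cells. Jund held the largest share of it in the quiescent and 24 h cultures with 32.1% and 25.0%, Jun at 48 h with 25.3% and Egr1 in activated cells with 28.1%. Fos made up 11.4%, 7.98%, 7.89% and 1.60% of the sum in the order quiescent, 24 h, 48 h and activated. By mean CPM over the cultures Jund ranked 1926, Jun 2293, Egr1 2311 and Klf6 2540 of 15364 genes, and Fosb ranked 13184. SORT-seq counts 3′ ends, so these levels are not divided by transcript length.

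**Figure D1:**
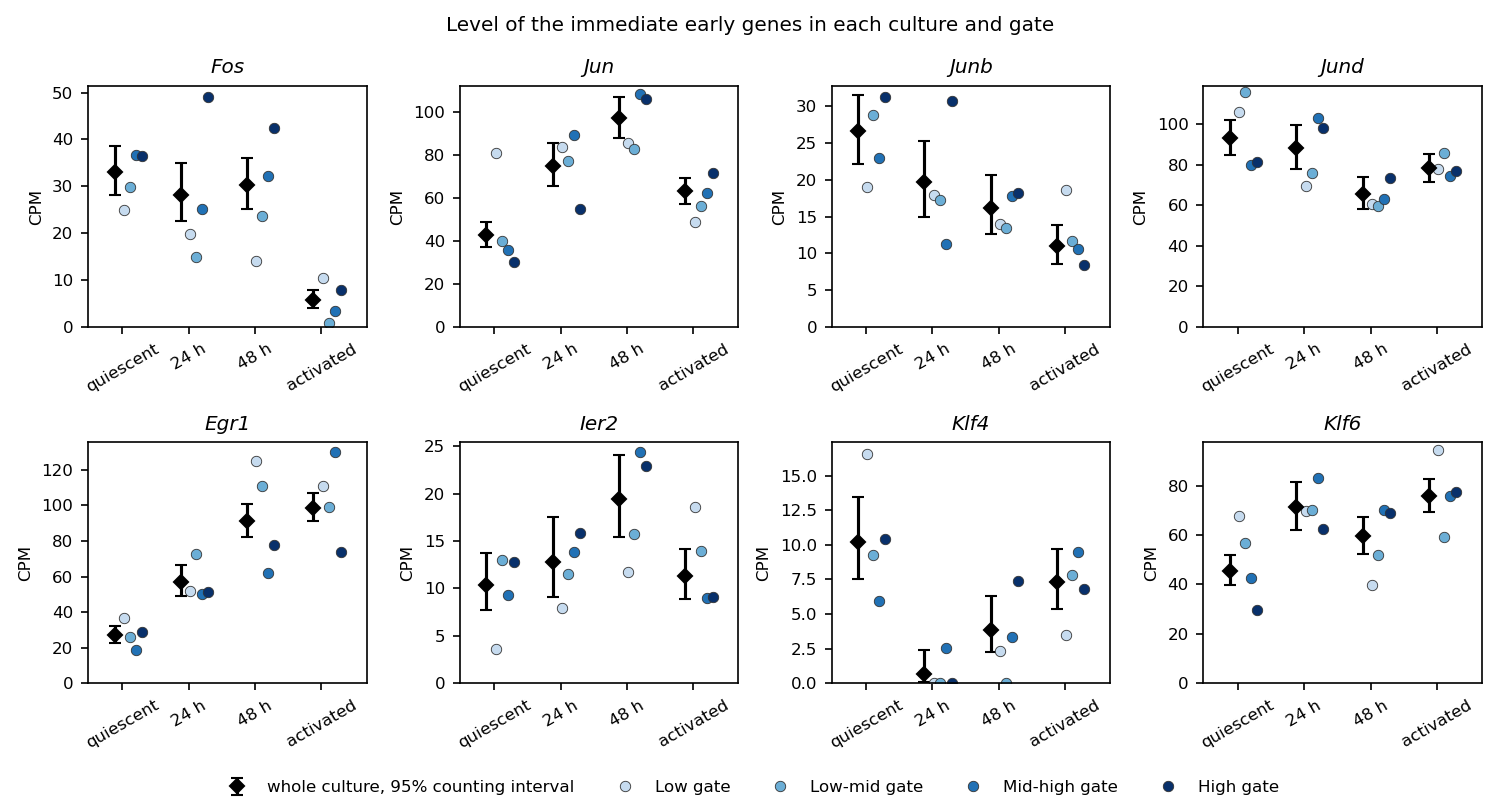
Level of 8 members in CPM (vertical axis, from 0) by culture (horizontal axis, from quiescent through 24 h and 48 h exit to activated). Black diamonds are whole cultures with 95% counting intervals and circles are the 4 gates, darker from Low to High. Fos lay at 5.64 CPM in the activated culture and between 28.2 and 33.0 CPM in the others, while Egr1 was lowest in quiescent cells at 27.2 CPM.

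The 24 h exit culture was compared with the quiescent culture on the same plate, which asked where these genes stood after the first day back in growth factors. Egr1 was at 57.1 CPM at 24 h against 27.2 in quiescent cells, Jun at 74.9 against 42.6 and Klf6 at 71.3 against 45.5. Klf4 was at 0.656 CPM against 10.2. On the log2 scale of CPM with 10 added, the ratios were 0.85 for Egr1 (95% counting interval 0.59 to 1.11), 0.69 for Jun (0.45 to 0.93) and 0.55 for Klf6 (0.31 to 0.78). That scale understates the ratios of low genes. Without the added 10 the ratio of Klf4 was 0.0645 (0.00760 to 0.246), resting on 2 counts at 24 h, and that of Egr1 was 2.10 (1.66 to 2.65). None of the 8 members with at least 20 counts over both cultures reached a log2 ratio of 1 in size, against 3.51% of 10462 such genes (1.23% higher and 2.27% lower). With 1 CPM added in place of 10, Egr1 and Klf4 did. The ratios differed between parts of the cultures. In the Low, Low-mid, Mid-high and High gates alone, the log2 ratio was 0.04, 0.80, 1.12 and 0.69 for Jun, 0.04, 0.27, 0.82 and 0.88 for Klf6 and 0.40, 1.19, 1.07 and 0.65 for Egr1. Computed separately in the cells sorted later within their gate and in those sorted earlier, it was 1.07 against 0.29 for Jun, 0.29 against 0.80 for Klf6 and 1.02 against 0.58 for Egr1.

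Gate by gate, 24 h cells had 51.8, 72.5, 50.2 and 51.2 CPM of Egr1 from Low to High, against 36.9, 26.0, 18.7 and 29.0 in quiescent cells. All 4 gates at 24 h lay above all 4 quiescent gates, as for 7.95% of all genes. Klf4 had no count in 3 gates and 2.51 CPM in the Mid-high gate at 24 h, against 16.6, 9.30, 5.96 and 10.4 CPM in quiescent cells, and its gates lay below, as for 10.1% of all genes. The gates of the other 6 members overlapped. Median log2 ratios were 0.05 over the members and -0.01 over all genes. Scaled by ERCC, the external RNA added to each well, the median of all genes moved by -0.28, and cells at 24 h held 55.5 transcripts per spike-in count against 76.6 in quiescent cells. On that scale the log2 ratio of Ier2 turned, to -0.08 from 0.16, and those of Egr1, Jun and Klf6 were 0.46, 0.28 and 0.15.

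Activated cells were set against quiescent cells, which asked how cycling cells in EGF and FGF2 differ from cells held by BMP4. Egr1 and Fos stood in opposite directions. Egr1 was at 98.7 CPM in activated cells against 27.2 in quiescent cells, with a log2 ratio of 1.55 (1.34 to 1.76) and 3.63 times the level (3.00 to 4.41). Fos stood at 5.64 CPM in activated and 33.0 in quiescent cells, for a log2 ratio of -1.46 (-1.68 to -1.21) and 0.171 times the level (0.116 to 0.245). Of the 8 members with enough counts, Egr1 alone was higher by 1 or more on the log2 scale, as were 9.12% of 11011 genes, and Fos alone lower, as were 6.50%.

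Both differences were seen in every gate. Egr1 had 111, 99.0, 130 and 73.7 CPM from Low to High in activated cells, against 36.9, 26.0, 18.7 and 29.0 in quiescent cells. Fos had 10.5, 0.779, 3.36 and 7.97 CPM in activated cells, against 25.0, 29.8, 36.6 and 36.5 in quiescent cells. Junb also lay below in every gate, with 18.6, 11.7, 10.6 and 8.35 CPM in activated cells, against 19.0, 28.8, 23.0 and 31.3 in quiescent cells. In this comparison 27.5% of all genes had all activated gates above all quiescent ones and 21.0% had them below, and 1 and 2 of 8 members are shares near that background. The log2 ratio of Fos in the Low gate alone was -0.77, so Fos did not reach 1 in size there.

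The other members moved less. Junb had a log2 ratio of -0.80 (-1.05 to -0.54), which passed 1 in size with 1 CPM added, Klf6 one of 0.63 (0.43 to 0.82) and Jun one of 0.47 (0.27 to 0.68). For Jun the direction turned with the gate. Its log2 ratio was -0.63 in the Low gate alone, with 48.9 CPM in activated cells against 80.9 in quiescent cells, and 0.40, 0.66 and 1.02 in the Low-mid, Mid-high and High gates. Klf6 had 0.42, 0.05, 0.70 and 1.14 from Low to High, and Junb -0.02, -0.84, -0.68 and -1.17. Jund was at -0.22 over all cells, Klf4 at -0.22 (-0.98 to 0.29 in single gates) and Ier2 at 0.06 (-0.25 to 1.08). The median was -0.08 over the members and 0.07 over all genes. Activated cells held 119 transcripts per spike-in count and quiescent cells 76.6, so scaling by spike-ins moved the median of all genes by 0.40. There the log2 ratio of Fos was -1.16 and that of Egr1 2.10, Jun and Klf6 reached 1.02 and 1.18, and Jund and Klf4 turned to 0.34 and 0.08. These cultures were on different plates, and plate and state cannot be told apart.

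The 48 h exit culture was compared with activated cells on the same plate. Fos was at 30.3 CPM at 48 h against 5.64 in activated cells, a log2 ratio of 1.37 (1.10 to 1.60) and 5.38 times the level (3.70 to 7.98). It was the only one of 8 members past 1 in size, as were 1.25% of 10780 genes in that direction (1.63% lower and 2.88% either way). From Low to High, Fos had 14.0, 23.7, 32.2 and 42.5 CPM at 48 h, against 10.5, 0.779, 3.36 and 7.97 in activated cells, so that all gates of the first lay above, as for 8.76% of all genes. The difference was smallest in the Low gate, where the log2 ratio was 0.23.

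Jun was at 97.0 CPM at 48 h against 63.0 in activated cells, and its 4 gates at 48 h, 82.5 to 108 CPM, also lay above those of activated cells, 48.9 to 71.4. Jund was at 65.7 CPM against 78.2, with its gates at 48 h, 59.9 to 73.6 CPM, below those of activated cells, 74.5 to 85.8, as for 15.1% of all genes. Egr1 stood at 91.2 CPM to 98.7, which gave a log2 ratio of -0.10 (-0.27 to 0.06) that was 0.03 with mitochondrial and ribosomal protein genes left out of the totals and ran from -0.95 (Mid-high) to 0.16 (Low) in single gates. Ier2 had a log2 ratio of 0.47 (0.18 to 0.74), which was -0.40 in the Low gate alone, and Klf4 one of -0.32 (-0.57 to -0.03), which was 0.05 in the High gate alone. Klf6 had one of -0.30 (-0.50 to -0.11), which was -1.07 and so past 1 in size in the Low gate alone. Junb had one of 0.32 (0.04 to 0.61), which was -0.25 in the Low gate alone. The median was 0.11 over the members and -0.08 over all genes. Scaling by spike-ins moved the median of all genes by -0.30 and left Fos at 1.21. Noggin and the time since quiescence cannot be told apart here.

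Between 48 h and 24 h exit, on different plates, none of 7 members reached 1 in size, against 7.12% of 10324 genes (4.49% higher and 2.62% lower). Egr1 stood at 91.2 CPM in 48 h cells and 57.1 in 24 h cells, a log2 ratio of 0.59 (0.36 to 0.82), and Jun at 97.0 against 74.9, a ratio of 0.33 (0.12 to 0.55) that ran from 0.02 in the Low gate to 0.84 in the High gate. Ier2 had a ratio of 0.37 (0.02 to 0.70) and Jund one of -0.38 (-0.60 to -0.16). Scaling by spike-ins moved the median of all genes by 0.41, with Egr1 at 1.14. On that scale Jund, Junb and Klf6 turned, to 0.20, 0.23 and 0.33, from -0.38, -0.18 and -0.23. The median of the members was 0.08 and that of all genes -0.03.

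Set against quiescence across plates, the 48 h culture had 91.2 CPM of Egr1 to 27.2 in quiescent cells, and 97.0 CPM of Jun to 42.6. The log2 ratios were 1.44 (1.21 to 1.67) and 1.03 (0.82 to 1.23), and these 2 of 8 members were past 1, as were 4.47% of 10663 genes in that direction (4.75% lower and 9.22% either way). For Jun the ratio was 0.07 in the Low gate alone, where quiescent cells had 80.9 CPM, and 0.95 on cells thinned to equal depth. In both genes all gates at 48 h lay above all quiescent gates, as for 16.4% of all genes, and in Junb and Jund they lay below, as for 18.6%. Fos stood at 30.3 CPM to 33.0, which gave a log2 ratio of -0.09 (-0.36 to 0.17) that turned to 0.02 on thinned cells and to 0.05 when scaled by spike-ins, where the median of all genes moved by 0.12. Klf4 was at 3.88 CPM against 10.2, with a log2 ratio of -0.54 (-0.80 to -0.23) and 0.381 times the level (0.202 to 0.682). Its log2 ratio passed 1 in size with 1 CPM added in place of 10. In single gates it ran from -1.11 (Low) to -0.23 (High). The comparisons above share cultures, so their ratios are not independent of each other.

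**Figure D2:**
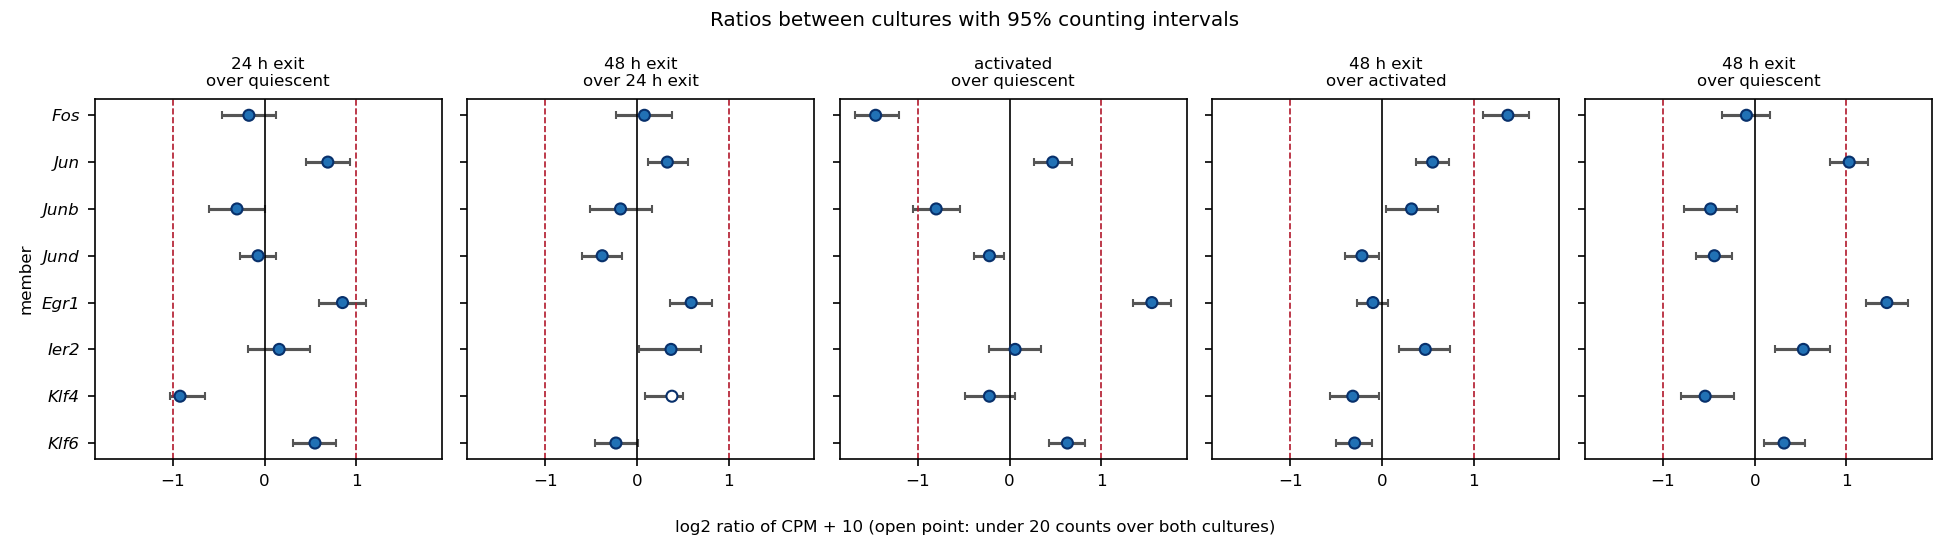
Log2 ratio of CPM with 10 added for 8 members (rows) in the 5 comparisons between cultures (panels), with 95% counting intervals. Dashed lines stand at 1 in size and the open point had under 20 counts. Fos lay at -1.46 in activated over quiescent cells and at 1.37 in 48 h exit over activated cells, and Egr1 at 1.55 and 1.44 in activated and 48 h exit over quiescent cells.

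Other genes of the early response, from a list of 41 of which 37 had a row, did not follow one direction either. Of 33 with enough counts in activated over quiescent cells, 2 were higher and 9 lower by 1 or more, beside 9.12% and 6.50% of all genes. The lists were chosen with earlier results of these data known, and nothing particular to a list is read from its counts. Nfkbia, an inhibitor of NF-kappaB, was at 28.3 CPM in activated cells against 178 in quiescent cells, the pseudokinase gene Trib1 at 23.3 against 144 and Dusp1, a MAP kinase phosphatase, at 6.10 against 55.9. Ier5 was at 44.0 CPM against 12.5 and Myc at 24.4 against 7.06. At 24 h over quiescent cells, where 1.23% of all genes were higher and 2.27% lower, 1 of 30 was higher, Ier3 at 35.8 CPM against 11.0. Another 5 were lower, among them Maff, a small bZIP factor, at 6.56 against 62.5, Gadd45g at 7.22 against 61.3 and the GTPase gene Rhob at 55.2 against 194.

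In 48 h over 24 h cells none of 31 was higher and 2 were lower, beside 4.49% and 2.62% of all genes. The 2 were Dusp1 at 5.09 CPM against 30.2 and Nfkbia at 39.0 against 97.2. In 48 h over activated cells, with 1.25% of all genes higher, 2 of 34 were higher, Klf10, a zinc finger factor, at 91.0 CPM against 35.7 and Trib1 at 59.7 against 23.3. In 48 h over quiescent cells, with 4.47% of all genes higher and 4.75% lower, 1 of 32 was higher, Klf10 at 91.0 CPM against 23.1. Another 10 were lower, led by Maff at 4.12 against 62.5, Rhob at 30.6 against 194 and Dusp1. The list's median log2 ratio was -0.07, -0.16, -0.06, -0.15 and -0.20 in the order 24 h over quiescent, 48 h over 24 h, activated over quiescent, 48 h over activated and 48 h over quiescent.

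Of 27 genes that act upstream of the members or pair with them, 26 had a row and 24 or 25 had enough counts. Rps6ka1, which encodes the kinase RSK1 downstream of ERK, was the one past 1, beside 9.12% of all genes higher in activated and 4.47% in 48 h over quiescent cells, at 31.9 CPM in activated cells and 27.9 in 48 h exit against 7.48 in quiescent cells. The serum response factor Srf was at 15.8, 15.4, 22.3 and 34.0 CPM in the order quiescent, 24 h, 48 h and activated. Of 7 genes for decay or stability of AU-rich messages, Hnrnpd and Ybx1 were higher by 1 or more in activated over quiescent cells. Both were also higher in 48 h over 24 h cells, and Hnrnpd in 48 h over quiescent cells. In that order, 9.12%, 4.49% and 4.47% of all genes were higher. Hnrnpd, which encodes the AU-rich binding protein AUF1, was at 307 CPM in activated cells against 115 in quiescent cells, and Ybx1 at 1380 against 499. The other comparisons had none past 1.

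Of 16 heat shock and dissociation genes, 15 with enough counts in activated over quiescent cells, 3 were higher by 1 or more, beside 9.12% of all genes. These were the mitochondrial chaperone genes Hspd1 and Hspe1, at 392 and 658 CPM in activated cells against 133 and 257 in quiescent cells, and Hsp90aa1 at 1162 against 473. None passed 1 in the other comparisons. Hspa1a, a gene of acute heat shock, was at 3.11, 1.97, 0.727 and 1.07 CPM in the order quiescent, 24 h, 48 h and activated, and Hspa1b at 5.19, 2.95, 1.21 and 5.49. These 2 genes are near-identical copies, and reads may be divided between them.

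Feedback genes of growth factor signalling, 11 of a list of 12, were higher at 24 h than in quiescent cells in 4 cases, with none lower, beside 1.23% and 2.27% of all genes. Ccnd1, a G1 cyclin, was at 235 CPM at 24 h against 44.9 in quiescent cells, the ERK phosphatase gene Dusp6 at 430 against 164 and the receptor kinase inhibitor gene Spry4 at 428 against 130. In activated over quiescent cells Ccnd1 was higher, at 1103 CPM against 44.9, and Spry1 lower, at 156 against 385. Ccnd1 was the 1 gene higher in 48 h over 24 h cells, at 1037 against 235, and Spry2 the 1 gene higher in 48 h over activated cells, at 108 against 46.2. Against quiescent cells 3 were higher at 48 h, Ccnd1, Spry4 and Dusp6. Of all genes 9.12% were higher and 6.50% lower in activated over quiescent cells. Higher were 4.49% in 48 h over 24 h cells, 1.25% in 48 h over activated cells and 4.47% in 48 h over quiescent cells.

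The share of cells with a transcript was compared after each cell was thinned to 12488 identifiers, which left out 18 quiescent, 29 24 h, 11 48 h and 6 activated cells. A transcript of Egr1 was present in 21.2% of the 156 quiescent cells left, with exact 95% limits of 15.0 and 28.4. It was present in 42.6% of 122 24 h cells (33.7 and 51.9), in 66.4% of 140 48 h cells (58.0 and 74.2) and in 57.0% of 158 activated ones (48.9 and 64.8). Fos was seen in 25.6%, 23.0%, 23.6% and 8.23% in the same order, with an activated interval of 4.45 to 13.7. Thinned to 5000 identifiers, Fos was seen in 16.1% of quiescent, 7.28% of 48 h and 3.05% of activated cells, with the 24 h share between those of the quiescent and 48 h cultures, and Egr1 in 11.5%, 22.7%, 32.5% and 24.4% from quiescent to activated. The distance between the 48 h and quiescent shares of Fos thus depended on the depth chosen. Without thinning Fos was seen in 41.4%, 28.5%, 37.1% and 14.0%, and Egr1 in 37.4%, 49.0%, 80.1% and 72.0%.

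Jun was seen in 35.9%, 43.4%, 64.3% and 52.5% of thinned cells in the order quiescent, 24 h, 48 h and activated, and Junb in 25.6%, 13.1%, 15.0% and 12.7%. Jund was the member seen most often in quiescent cells, in 63.5%, with 54.1%, 47.1% and 62.0% in the others. Klf6 was seen in 40.4%, 49.2%, 46.4% and 55.1% and Ier2 in 10.3%, 14.8%, 22.1% and 16.5%. Klf4 was seen in 7.69%, 1.64%, 5.00% and 8.86%, and Atf3 in at most 1.64%. Fosb was in 0 of the thinned cells, which allows shares of up to 1.92%, 2.46%, 2.14% and 1.90%. Unthinned, the shares were 52.3%, 53.0%, 72.8% and 74.4% for Jun and 82.2%, 65.6%, 66.9% and 87.8% for Jund.

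Some members varied between cells more than genes of a like mean. The variance of thinned counts over their mean, which is 1 under Poisson sampling, was 2.51 for Jun in quiescent cells and 2.72 at 24 h, against medians of 1.14 and 1.18 over 1270 and 1045 genes of a like mean. Jun had 1.72 at 48 h and 1.34 in activated cells. Jund had 1.63, 1.94, 1.93 and 1.12 in the order quiescent, 24 h, 48 h and activated, Klf6 had 1.69, 2.11, 1.29 and 1.33, and Fos had 1.43, 1.59, 1.58 and 1.28. Junb had its highest value at 24 h with 1.91, and Ier2 stayed between 0.957 and 1.08.

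By definition 10% of the genes of a like mean lie above their 90th percentile. Above it were 4 of 8 members in quiescent cells (Fos, Jun, Jund and Klf6), 5 of 7 at 24 h (Fos, Jun, Junb, Jund and Klf6), 4 of 7 at 48 h (Fos, Jun, Jund and Egr1) and 2 of 8 in activated cells (Egr1 and Klf4). The tenth of thinned quiescent cells with the most Jun, 16 cells, held 54.1% of its counts, and the 16 highest activated cells held 37.3%. For Fos the 16 highest quiescent cells held 58.6%, 13 cells at 24 h 62.5% and 14 cells at 48 h 62.3%. The median quiescent cell had no Fos and the 90th percentile lay at 1.13 counts per 10000.

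In activated cells 1 cell stood out for Egr1. That cell, in the Mid-high gate and S phase, held 61 of 647 identifiers (648 counts after the authors' correction), or 9.43%, and the next held 27. The ratio of variance to mean was 2.90 with it, 2.80 without it and 1.87 without the 5 cells with the highest thinned counts. Egr1 was at 98.7 CPM with that cell and 90.3 without. In quiescent cells 1 cell held 15 of 205 Jun counts, and at 24 h 1 cell held 20 of 228, in the Mid-high gate. The spread of Jun moved with its highest cells. Without its highest cell the ratio was 2.49 in quiescent cells and 1.75 at 24 h, and without its 5 highest cells it was 1.04 and 1.29, under the 90th percentiles of 1.45 and 1.52 for genes of a like mean with all their cells. Of the other members above their 90th percentile, all but Egr1 in activated cells also fell under it without their 5 highest cells. Fos then had 1.09, 1.02 and 1.25 in quiescent, 24 h and 48 h cells, and Jund 1.29, 1.31 and 1.30. Klf6 had 1.15 and 1.40 in quiescent and 24 h cells and Junb 1.21 at 24 h. Egr1 had 1.17 at 48 h and Klf4 0.947 in activated cells. The genes of a like mean were not treated the same way. Leaving out the cell with the most counts of each gene in each culture kept the same called members in activated over quiescent cells, Fos and Egr1.

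**Figure D3:**
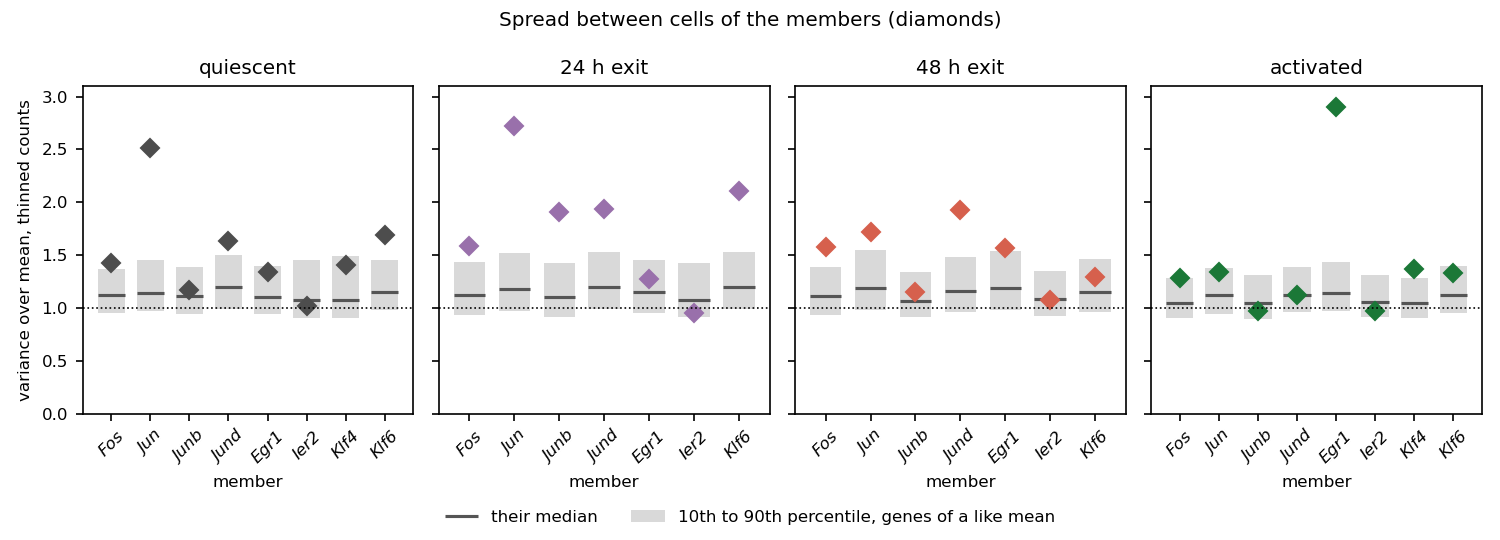
Variance over mean of thinned counts (vertical axis) for the members shown (horizontal axis) in each culture. Diamonds are members, grey bars run from the 10th to the 90th percentile of genes of a like mean with their median as a line, and the dotted line is Poisson sampling. Jun stood at 2.51 and 2.72 in quiescent and 24 h cells and Egr1 at 2.90 in activated cells, against 1.04, 1.29 and 1.87 without the 5 highest cells of the gene.

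Between cells of a culture the members were only loosely tied. Over 21 pairs of 7 members in 4 cultures, Spearman's rho of thinned counts had a median of 0.05 and ran from -0.15 to 0.30, and 59 of 84 values were above 0. The highest means over cultures were 0.18 for Fos and Egr1 (0.11 to 0.27), 0.17 for Jun and Jund (0.13 to 0.22) and 0.16 for Fos and Junb (0.09 to 0.23). Jun and Klf6 had 0.21, 0.22 and 0.25 in quiescent, 24 h and 48 h cells and -0.06 in activated cells. Fos and Jun, the textbook AP-1 pair, had -0.10, 0.04, 0.05 and -0.05. These are descriptions across cells that share a library, and weak values in sparse counts are no finding.

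Of 3059 other genes, those whose thinned counts followed the members' sum most closely within cultures were Spry4 with a mean rho of 0.19, Dclk1 with 0.17, and Gatad1, Wsb2, Dync1h1 and Cxxc5 with 0.15 each. Spry1, Hexa, Dnajc2 and Atf4 had 0.14. The 99th percentile over these genes was 0.12, and the values are over 576 cells. The genes named were picked as the highest of the 3059, so they lie above that percentile by construction. Their place above it is no result. Spry4 had 0.04 in quiescent cells and 0.21, 0.31 and 0.22 in 24 h, 48 h and activated cells.

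The gates asked whether cells of high autofluorescence carried more of these genes than cells of low autofluorescence. Fos was the member with the largest difference. It had 36.5 CPM in the High gate against 25.0 in the Low gate in quiescent cells, 49.0 against 19.9 at 24 h, 42.5 against 14.0 at 48 h and 7.97 against 10.5 in activated cells. It was thus higher in the High gate in 3 of 4 cultures. With the counts summed per culture and gate, the culture as a block and edgeR's quasi-likelihood test, the log2 ratio was 1.05 (SE 0.28) with a Benjamini-Hochberg adjusted p of 0.0521, just short of the threshold of 0.05.

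None of the 7 members tested passed that threshold in edgeR, against 2.38% of 8739 genes (1.90% higher and 0.481% lower in the High gate), and 1 member had an unadjusted p below 0.05, as did 1402 genes. DESeq2 called none of them and gave Jund alone an adjusted p, 0.668. The Fos call rested on the setting: the adjusted p was 0.0493 with the size factors of DESeq2 in edgeR, 0.0302 with limma voom, 0.00418 with no filter on low counts and 0.00303 for a linear trend over the 4 gates. Leaving out the activated culture gave 0.0330, and leaving out one of the other cultures gave 0.107 to 0.440. The replication is 4 cultures of 4 different states, with 3 residual degrees of freedom.

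The other members gave smaller ratios. Egr1 was lower in the High gate in 4 of 4 cultures, though at 24 h the gates were near equal, 51.2 against 51.8 CPM. Its log2 ratio was -0.32 (SE 0.16), with an adjusted p of 0.327 in edgeR. Ier2 had 0.61 (SE 0.41, adjusted p 0.509), Junb 0.38 (SE 0.32, adjusted p 0.619) and Jund 0.21 (SE 0.16, adjusted p 0.564). Jun at -0.05 and Klf6 at -0.06 hid opposite values in single cultures. Jun had 30.2 CPM in the High gate against 80.9 in the Low gate in quiescent cells and 54.7 against 83.7 at 24 h, but 106 against 85.2 at 48 h and 71.4 against 48.9 in activated cells. Klf6 had 29.6 against 67.8 CPM in quiescent cells and 68.9 against 39.7 at 48 h. Whether the gates differ between cultures was not tested, with 1 culture of each state. The median log2 ratio was 0.21 over the 7 members and 0.00 over all genes.

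Sorting went largely gate by gate. Cytometer time, whose unit is not stated, had medians of 83.4, 167, 255 and 348 from Low to High in quiescent cells and the same order in the other cultures, with neighbouring gates overlapping in time in the quiescent and 48 h cultures. The part of sort order in the gate differences was not tested. Within gates the cells were also divided at the middle of their time. Cells sorted later within their gate had 36.1 CPM of Fos against 29.6 in those sorted earlier in quiescent cells, 32.1 against 23.8 at 24 h, 37.4 against 22.9 at 48 h and 4.69 against 6.80 in activated cells. Their median autofluorescence was 5539 against 5533, 5569 against 5494, 5417 against 5228 and 4181 against 4183 intensity units. Egr1 had 72.3 CPM in later cells against 40.0 in earlier ones at 24 h, and 82.3 against 119 in activated cells. Junb had 27.2 against 11.2 CPM at 24 h and 26.6 CPM in later and in earlier quiescent cells. Cells of the High gate also had larger forward scatter, 109153 against 58649 in the Low gate in quiescent cells, and their part in these values was not tested.

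Per cell, Fos had a rho with autofluorescence of 0.17, 0.26, 0.21 and 0.00 in the order quiescent, 24 h, 48 h and activated, on thinned counts. Jun had -0.19, -0.18, 0.13 and 0.14 and Egr1 -0.05, -0.08, -0.13 and -0.04. For Jund the lowest values were with the percent of mitochondrial counts, -0.32 in quiescent cells and -0.26 at 24 h.

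**Figure D4:**
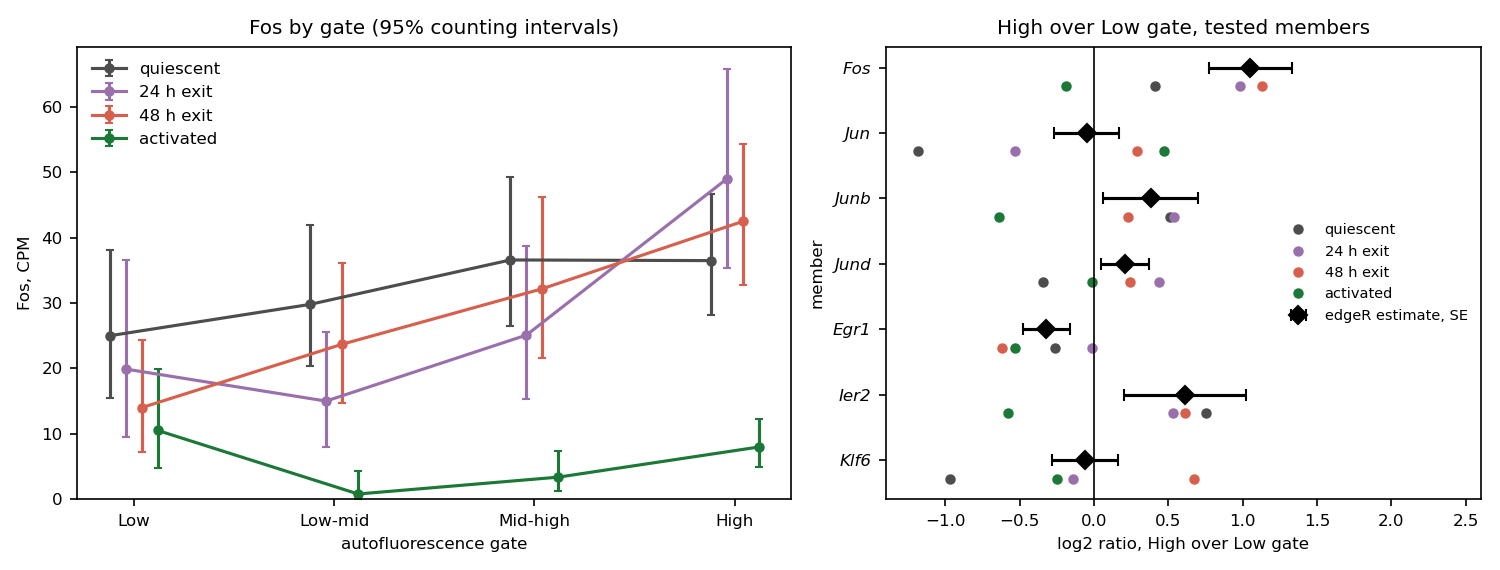
Left, Fos in CPM (vertical axis, from 0) by gate in the 4 cultures with 95% counting intervals. Right, log2 ratio of High over Low gate for the 7 members tested, with the edgeR estimate and its SE as diamonds and single cultures, on CPM with 10 added, as circles. Fos was at 36.5, 49.0 and 42.5 CPM in the High gates of quiescent, 24 h and 48 h cells and at 7.97 in that of activated cells, and Jun had circles on both sides of 0.

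Among the 5 lists, 3 genes passed the gate test in edgeR, beside 2.38% of all 8739 genes tested (1.90% higher and 0.481% lower). Nothing particular to a list is read from this count. Klf10 fell in the High gate with a log2 ratio of -0.79 (SE 0.19, adjusted p 0.0324), Hnrnpd fell with -0.57 (SE 0.12, adjusted p 0.0204), and the small heat shock gene Cryab rose with 1.27 (SE 0.14, adjusted p 4.28e-05). In the list of 41 early response genes 25 were tested and Klf10 was the 1 called. Hes1, a Notch target, at -0.44 (adjusted p 0.0894) and the antiproliferative gene Tob1 at 0.68 (adjusted p 0.184) followed. None of 22 upstream genes was called, with the p38 kinase gene Mapk14 at -0.61 (adjusted p 0.133), the JNK gene Mapk9 at 0.46 (0.145) and Creb1 at -0.27 (0.492) nearest.

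Of 12 heat shock and dissociation genes tested, Cryab was the 1 called, and Hspa5, the chaperone of the endoplasmic reticulum, had -0.42 (adjusted p 0.0612 in edgeR) and Dnaja1 -0.35 (0.126). Of 6 genes of AU-rich message decay, Hnrnpd was the 1 called, with Ybx1 at -0.38 (adjusted p 0.127) and Zfp36l2 at -0.31 (0.329). None of 10 growth factor feedback genes was called, with Spry2 at 0.32 (adjusted p 0.289), Spred1 at 0.25 (0.308) and Ccnd1 at 0.30 (0.341). List medians were -0.06, -0.01, -0.21, -0.21 and 0.08 for early response, upstream, heat shock, message decay and feedback genes.

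The authors' clusters largely followed the cultures. Cluster 1 held 166 of 174 quiescent cells, cluster 0 held 145 of 151 cells at 24 h and cluster 2 held 163 of 164 activated cells. The 48 h cells were divided, 41 in cluster 0 with the 24 h cells and 109 in cluster 3. Within the 48 h culture the 109 cells of cluster 3 had 24.7 CPM of Fos (19.4 to 30.9), against 46.9 (34.8 to 61.8) in the 41 cells of cluster 0. Egr1 was at 99.1 CPM (88.2 to 111) in cluster 3 against 68.4 (53.6 to 86.0) in cluster 0, Jun at 94.2 against 104 and Klf6 at 61.6 against 52.5. The clusters belong to the same cells whose counts are compared, so these are descriptions and no test was made.

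Over all cultures Fos was at 33.5, 34.2, 5.19 and 24.1 CPM in clusters 0 to 3, and Egr1 at 60.4, 26.0, 97.0 and 96.6. Jun was highest in cluster 3 at 93.4 CPM, with 80.8, 41.9 and 62.6 in clusters 0, 1 and 2. Junb was at 18.4, 27.4, 10.7 and 17.2 CPM, and Klf4 at 1.24, 9.49, 7.32 and 5.53.

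By the authors' phase calls Fos at 48 h was at 41.1 CPM in 22 G0 cells, 50.0 in 21 G1 cells, 29.1 in 50 S cells and 21.5 in 58 G2M cells, with G1 and G2M intervals of 33.0 to 72.8 and 15.0 to 29.7. In activated cells Fos was low in each phase, at 2.76 CPM in 23 G1 cells, 8.57 in 61 S cells and 4.49 in 79 G2M cells. Activated G1 cells, with 3 counts, thus lay under the 48 h G1 cells. Egr1 in activated cells was at 72.8 CPM in G1, 144 in S and 74.5 in G2M, and the S cells include the cell with 61 identifiers. In quiescent cells 146 were called G0, with 35.8 CPM of Fos and 24.3 of Egr1, and at 24 h 138 were G0, with 28.7 and 57.5. Jun at 48 h was at 85.9, 137, 69.2 and 111 CPM in G0, G1, S and G2M.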

How the data were processed

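Single cells were measured on 2 plates of 384 wells, and 640 cells with a row in the authors' per-cell table were used, which leaves out 128 wells. The deposited tables hold expected counts, that is molecule counts per gene and well that the authors corrected for molecules sharing 1 of 4096 identifiers. Undoing that correction gave whole numbers to within 4.79e-05. The authors' per-cell table gives the percent of mitochondrial counts, scatter and autofluorescence as intensity in cytometer units, gate, phase and cluster, per the file headers. BWA 0.7.15, R 4.2.0, Seurat 4.1.1 and the builds mm10 and hg19 are named, with no role, per the submitters' processing notes. How cells were kept, clustered and given phases, and how doublets were treated, is not given in the sources used here, and no doublet caller was run.

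Counts were summed per culture, or per culture and gate, and divided by the summed total to give CPM. Ratios used CPM with 10 added, over genes with at least 20 counts in both cultures together, and a log2 ratio of 1 in size was the limit for naming a difference. Intervals are exact at 95% and cover counting error only, and a count of 0 is given the limit of 3 counts. Each state had 1 culture, so no test was made between cultures. Cells were thinned to 12488 identifiers for shares, spread and correlations, with 5000 as an alternative for shares and spread. The High gate was compared with the Low gate on rounded expected counts with edgeR 4.0.16 in R 4.3.3 (quasi-likelihood test, culture as block, Benjamini-Hochberg threshold 0.05), with DESeq2 1.42.0 and limma 3.58.1 as alternatives. The block pairs gates of the same culture. Checked on simulated data for that comparison, the test recovered 40.3%, 86.4% and 100% of genes changed by 1.5, 2 and 4 times. It made 4 false calls among 8794 genes. The changed genes were drawn from genes with more counts than Junb and Ier2 had, and each fold was the same in every culture. These rates may not hold for members with few counts or with gate ratios that differ between cultures.

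The members and lists were chosen with earlier results of these data known. All members are described. From each list, up to 3 genes with the largest ratio in each direction past the limit are named per comparison, and the 3 with the smallest p in the gate test. Srf, Hspa1a, Hspa1b fall outside that rule or were named after their values were seen. Likeness names the 10 other genes with the largest mean rho. Promoter letters come from RefSeq and were not tested against any value. One of the marker lists is not reported here.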

Additional observations from a re-analysis of the deposited data

Results flagged for a closer look

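The log2 ratio of the High over the Low gate for Ier2 was -0.58 in the activated culture, with 9.11 CPM in the High gate against 18.6 in the Low gate. It was 0.75 in the quiescent, 0.53 in the 24 h and 0.61 in the 48 h culture, so the activated culture stood far from the other 3. The gap was 0.837 of the whole range, above Dixon's 95% limit for 4 values. Chance gives such a gap in about 1 in 20 groups, and 8 groups were looked at. The ratios rest on few counts, with 3 in the Low gate of quiescent cells and 4 in that of 24 h cells. In activated cells the counting intervals of the High gate (5.84 to 13.6 CPM) and the Low gate (10.6 to 30.2) overlapped. Dixon's limit takes no account of counting error.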

How the results depend on the processing

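Of 16 alternatives, Egr1 stayed past 1 in all of them in activated over quiescent cells (1.10 to 2.28) and in 48 h over quiescent cells (1.17 to 1.77). Fos stayed past 1 in 15 in activated over quiescent cells, all but the Low gate alone (-0.77), and in 14 in 48 h over activated cells, all but the Low gate (0.23) and the earlier cells of each gate (0.97). Jun in 48 h over quiescent cells stayed past 1 in 11, and gave 0.95 on thinned cells, 0.87 as a mean of cells, 0.07 and 0.89 in the Low and Low-mid gates and 0.55 in the earlier cells of each gate. With cells thinned to 5000 identifiers the variance over mean of Jun was 1.20 in quiescent and 1.44 in 24 h cells and that of Egr1 2.04 in activated cells. At that depth Fos had 1.24, 0.985 and 1.34 in quiescent, 24 h and 48 h cells, and Jund 1.17, 1.39 and 1.91. Klf6 had 1.19 and 1.81 in quiescent and 24 h cells. The division of gates by time and the removal of the cell with the most counts were chosen after seeing the data. The median log2 ratio of the members moved to -0.27 (spike-in scaling) and -0.30 (Low-mid gate) in 24 h over quiescent cells. It moved to 0.54 (spike-ins), -0.17 (Low gate), 0.26 (Mid-high gate) and 0.38 (G0 and G1 cells) in 48 h over 24 h cells. In activated over quiescent cells it moved to 0.16 (thinned), 0.38 (spike-ins) and 0.13 (Mid-high gate), in 48 h over activated cells to -0.22 (spike-ins) and -0.19 (Low gate), and in 48 h over quiescent cells to -0.41 (Low gate). The cause was not tested.

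In the gate test 1 member, Fos, was called with DESeq2's size factors, with no filter, with the linear trend and with limma voom, and 0 to 1 when a culture was left out. Under the linear trend Jun turned to 0.05 and Klf6 to 0.02, and with a culture left out Jun ran from -0.32 to 0.30 and Klf6 from -0.40 to 0.20. With no replicate block Fos had a log2 ratio of 1.14 and an adjusted p of 1.00 in edgeR, and no gene of 7792 was called. Over all genes 166 were higher and 42 lower with the block. DESeq2 gave 95 and 28, with no adjusted p for 6777 of 8739 genes, no filter gave 305 and 109, the trend 417 and 221, and limma voom 229 and 118. Leaving out a culture gave 19 to 146 higher and 1 to 34 lower, the fewest without the 48 h culture (19 and 1), and 69 and 15 without the activated culture. Members at under 20 counts, Fosb and Atf3, were limited by depth.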
